A study of Mus musculus with 6 samples.

Results

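The splicing factors described here are the genes of the spliceosome and its regulators whose symbols begin with Srsf, Hnrnp, Snrp, Sf3a or Sf3b. Symbols ending in -ps and a number were left out, which removed Hnrnpa1l2-ps2 alone. The rule took 54 of the 27763 gene rows in the deposited table: 11 SR, 21 hnRNP, 13 snRNP and 9 SF3 rows. Polyadenylated RNA was sequenced from natural killer (NK) cells, which are cytotoxic innate lymphocytes. The cells came from spleens of wild type C57BL/6 mice, 6-week-old in both groups, and gave 3 DN NK and 3 cNK libraries. The labels spell out neither short name and give no surface markers, and the series title speaks of an immature NK subset resident in the spleen and of T-bet. Nor do they say whether each library is a different animal, and a p-value here reflects the spread among libraries alone. In bulk RNA, fewer cells of a type and less RNA per cell cannot be told apart.

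Splicing removes introns from pre-mRNA in steps that the 4 classes serve in different ways. SR proteins (serine/arginine-rich splicing factors) mostly bind exonic enhancers and help exons to be included, and hnRNPs (heterogeneous nuclear ribonucleoproteins) coat nascent RNA and often act on exons in the opposite sense. The Snrp genes encode the Sm ring that holds the spliceosomal small nuclear RNAs, and proteins of the U1 and U2 snRNPs. SF3a and SF3b are parts of the U2 snRNP that help to place it on the branch point. Many SR and hnRNP genes limit their own protein through poison exons or retained introns, whose transcripts are open to nonsense-mediated decay.

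The libraries held 79798234 to 89526647 estimated counts each. Pairwise correlations of log2 normalised counts over tested rows were 0.987 to 0.989 within the groups and 0.914 to 0.934 between them, and the first principal component, with 81.0% of the variance, separated DN NK from cNK. All 12 NK marker genes reached 1 FPKM (read fragments relative to gene length and sequencing depth) in both groups, and their summed level was 3442 to 3977 FPKM in DN NK and 9043 to 9758 FPKM in cNK. Of these, 11 were lower in DN NK, and Il2rb (mean 760 FPKM in DN NK and 747 FPKM in cNK) did not pass the test. The gap in the sum was largest in Gzma (mean 601 FPKM in DN NK and 4037 FPKM in cNK), then in Nkg7 (633 and 1480 FPKM). The listed B cell markers summed to 42.3 to 55.9 FPKM in DN NK and 2.84 to 3.25 FPKM in cNK, T cell markers to 126 to 136 and 76.7 to 78.6 FPKM, and ILC2 and ILC3 markers to 93.0 to 100.4 and 20.9 to 22.8 FPKM. All 8 tested of 12 B cell markers, 6 of 7 tested of 12 T cell markers and all 5 tested of 10 ILC2 and ILC3 markers were higher in DN NK. The T cell sum mixes directions. Thy1, the 1 lower T cell marker, averaged 37.1 FPKM in DN NK and 54.4 FPKM in cNK, most of the cNK sum. Cd3d, with the largest rise in FPKM, averaged 38.5 FPKM in DN NK and 4.54 FPKM in cNK. Summed monocyte and macrophage markers were 21.6 to 24.3 FPKM in DN NK and 41.7 to 47.1 FPKM in cNK, a gap carried by Ly6c2 (mean 15.8 FPKM in DN NK and 37.1 FPKM in cNK), while Cd68 did not pass the test and Csf1r, Adgre1 and Cd14 were below 1 FPKM in both groups. Summed dendritic cell markers were 133 to 143 FPKM in DN NK and 184 to 197 FPKM in cNK, carried by Itgax (mean 124 FPKM in DN NK and 188 FPKM in cNK). The other 2 tested dendritic markers were higher in DN NK: Zbtb46 averaged 6.42 FPKM in DN NK and 1.56 FPKM in cNK, and Batf3 6.72 FPKM in DN NK and 0.277 FPKM in cNK. The 5 listed neutrophil markers, S100a8 among them, reached 0.617 FPKM at most in summed level in DN NK and were all listed at 0 in cNK. These levels move with every group difference below, and their part in it was not tested.

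SR genes stood higher in DN NK, while the other 3 classes were mixed. Of the 51 members that reached 1 FPKM in at least 3 of 6 libraries, 24 were higher and 15 lower in DN NK at an adjusted p under 0.05 (edgeR quasi-likelihood test on all tested rows, Benjamini-Hochberg), and 12 did not pass. That is 76.5% of members past the test, where 61.7% of all 11690 tested rows passed, 30.8% higher and 30.9% lower. Among rows with a mean of at least 5 FPKM the share was 66.7%. By class, 8 of 10 SR genes were higher and 1 lower, 9 of 20 hnRNP genes higher and 6 lower, 4 of 12 snRNP genes higher and 4 lower, and 3 of 9 SF3 genes higher and 4 lower. The hnRNP balance depends on the scaling and the filter: with upper quartile scaling, and with no filter, 6 hnRNP genes were higher and 8 lower. The snRNP shares, 33.3% in each direction, lie near those of all tested rows. The median log2 fold change, DN NK over cNK, was 0.48 in the SR class, 0.06 in the hnRNP class, -0.08 in the snRNP class and -0.07 in the SF3 class, against -0.02 over all tested rows. The differences between classes carry no test.

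The changes were mostly small. The median absolute log2 fold change was 0.29 over the members and 0.37 over all tested rows, and none of the 51 tested members reached 2-fold, a size that 12.6% of all tested rows passed. Over 1.5-fold higher stood 6 of these members (3 SR, 2 hnRNP and 1 SF3), and none stood over 1.5-fold lower, against 15.9% and 13.2% of all tested rows. FPKM values of the 3 DN NK and 3 cNK libraries did not overlap for 41 of 51 members, 22 higher and 19 lower, where 70.3% of all tested rows showed no overlap.

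**Figure D1:**
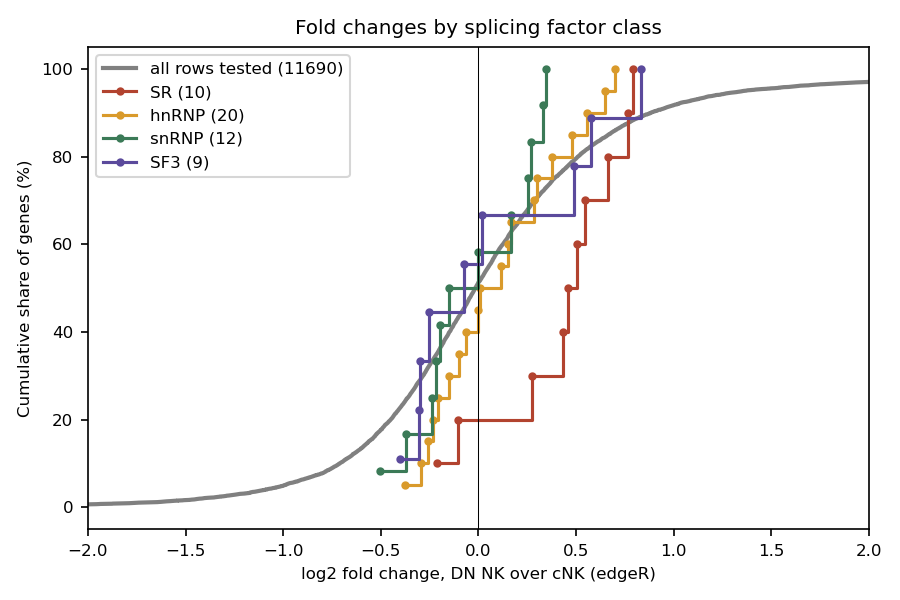
Cumulative share of genes (%) against log2 fold change, DN NK over cNK, for the 4 splicing factor classes and for all 11690 tested rows; the axis is limited to between -2 and 2, so the ends of the grey curve lie outside it. The SR curve lies right of the others over most of its range, with 8 of 10 genes above 0, but ends at 0.79, where SF3 reaches 0.83 and all rows go further, and the snRNP and SF3 curves cross 0 near their middle.

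In summed level the SR class stood apart more than the rest. SR genes summed to 962, 942 and 904 FPKM in DN NK and to 715, 701 and 715 FPKM in cNK, a ratio of 1.32. The hnRNP genes summed to 1571, 1493 and 1545 FPKM in DN NK and to 1364, 1325 and 1338 FPKM in cNK, a ratio of 1.14. Neither class overlapped between the groups. The snRNP genes summed to 328, 317 and 317 FPKM in DN NK and to 328, 327 and 317 FPKM in cNK, with overlap and a ratio of 0.989. Total FPKM per library was 323791 to 332451 in DN NK and 348463 to 352688 in cNK. As a share of that total the snRNP genes held 0.0995, 0.0953 and 0.0978% in DN NK. Their shares in cNK were 0.0936, 0.0940 and 0.0898%, without overlap. The SF3 genes summed to 329.9, 323 and 327 FPKM in DN NK and to 298, 304 and 292 FPKM in cNK, a ratio of 1.10. That gap was carried by Sf3b1 (mean 139 FPKM in DN NK and 96.9 FPKM in cNK), so the SF3 sum does not describe the class as a whole. On counts relative to library size (CPM), which weigh long transcripts more, the ratio was 1.10 for hnRNP, 0.990 for snRNP and 1.28 for SF3. Hnrnpa1 and Srsf5 together supplied 22.5 to 23.8% of all member FPKM in DN NK and 20.02 to 21.5% in cNK.

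**Figure D2:**
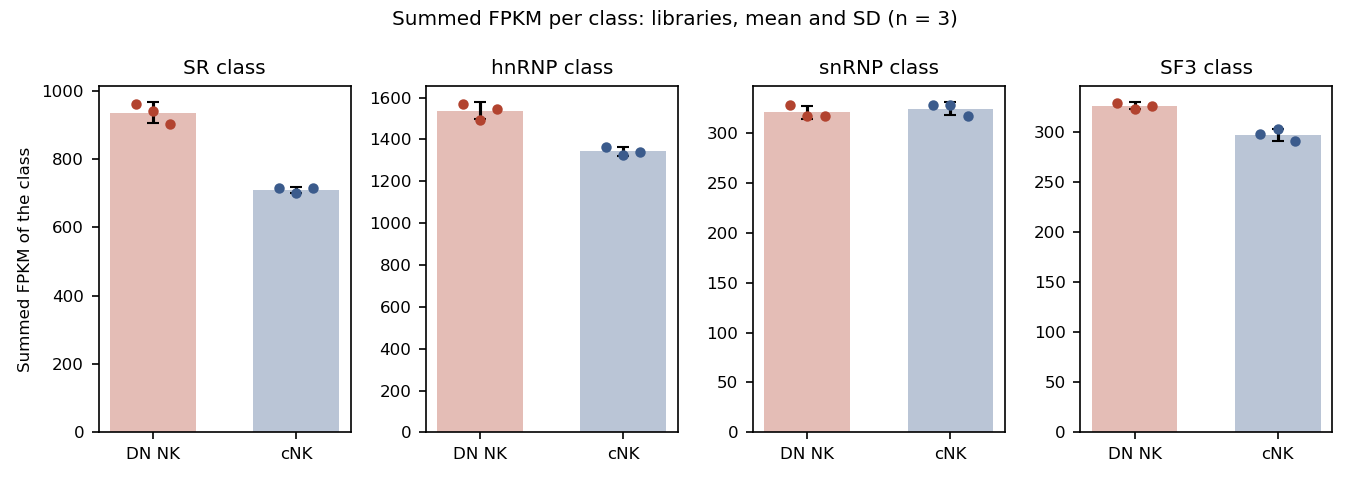
Summed FPKM of each class in DN NK and cNK; points are libraries, bars the mean and error bars the SD (n = 3 each). The 3 DN NK libraries lie above the 3 cNK libraries for SR, hnRNP and SF3, and overlap with them for snRNP. The SF3 gap is carried by Sf3b1.

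Among the 10 tested SR genes, the largest change was that of Srsf11 (p54, an SR-related protein of nuclear speckles), at chr3:158010473-158036639 on the minus strand of GRCm38. It had 40.5, 40.4 and 35.9 FPKM in DN NK, against 23.2, 22.1 and 25.1 FPKM in cNK. Each DN NK library exceeded every cNK library, and the log2 fold change was 0.79 (SE 0.0708, adjusted p = 2.7e-05). Srsf10, an SR-like protein that represses splicing when dephosphorylated in mitosis or heat shock, lies at chr4:135855747-135869908 on the plus strand. It had 22.7, 22.9 and 21.8 FPKM in DN NK, against 13.8, 13.5 and 14.1 FPKM in cNK, a change of 0.77 (SE 0.0475, adjusted p = 4.17e-06) with no overlap. Srsf7 (chr17:80200089-80207305, minus strand), a shuttling SR protein that links splicing to mRNA export, had 126, 127 and 117 FPKM in DN NK, against 84.1, 79.7 and 79.7 FPKM in cNK. Its groups lay far apart, with a change of 0.66 (SE 0.0556, adjusted p = 1.94e-05). These 3 are the tested SR genes over 1.5-fold higher.

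Srsf4 (chr4:131873617-131901706, plus strand), one of the longest SR proteins, had 26.9, 27.8 and 27.8 FPKM in DN NK, against 21.1, 18.2 and 19.6 FPKM in cNK. The groups did not overlap, and the change was 0.55 (SE 0.0653, adjusted p = 0.000135). Its row overlaps those of Gm12992 on the other strand and A930004J17Rik on the same strand, whose counts equal 21.96% and 26.4% of its own, so part of its reads cannot be assigned. Srsf5 (chr12:80945504-80950507, plus strand) was the most abundant SR gene, with 372, 341 and 331 FPKM in DN NK, against 278, 259.5 and 270.2 FPKM in cNK. It was higher in every DN NK library, by 0.43 on the log2 scale (SE 0.0665, adjusted p = 0.000589). Srsf3, the smallest SR protein, rose by 0.51, Srsf6 by 0.46 and Srsf2 (SC35), which acts in the nucleus, by 0.27. All 8 higher SR genes held their call under each of the 15 other analyses run.

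The other 2 tested SR genes went the other way or did not pass. Srsf1 (SF2/ASF, among the first SR proteins to be found), at chr11:88047373-88053755 on the plus strand, had 14.0, 14.8 and 13.4 FPKM in DN NK, against 14.9, 18.0 and 18.1 FPKM in cNK. Its highest DN NK value lay just under its lowest cNK value, and the log2 change of -0.21 passed narrowly (adjusted p = 0.0426). That call was lost in 6 of 15 other analyses, among them those without DN NK replicate 1, DN NK replicate 3, cNK replicate 2 and cNK replicate 3 (adjusted p = 0.0860 to 0.139). Srsf9 (chr5:115327177-115333080, plus strand), the most abundant SR gene that did not pass, had 11.5, 10.5 and 12.5 FPKM in DN NK, against 12.6, 13.2 and 12.9 FPKM in cNK (log2 change -0.11, SE 0.0769, adjusted p = 0.263). Srsf12 stayed below the filter, at 0.561, 0.472 and 0.530 FPKM in DN NK and 0.0667, 0.125 and 0.0737 FPKM in cNK. Each DN NK value lay above every cNK value, and a fit with no filter gave a log2 change of 2.53 (SE 0.312, adjusted p = 4e-05), where 31.3% of all rows passed.

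**Figure D3:**
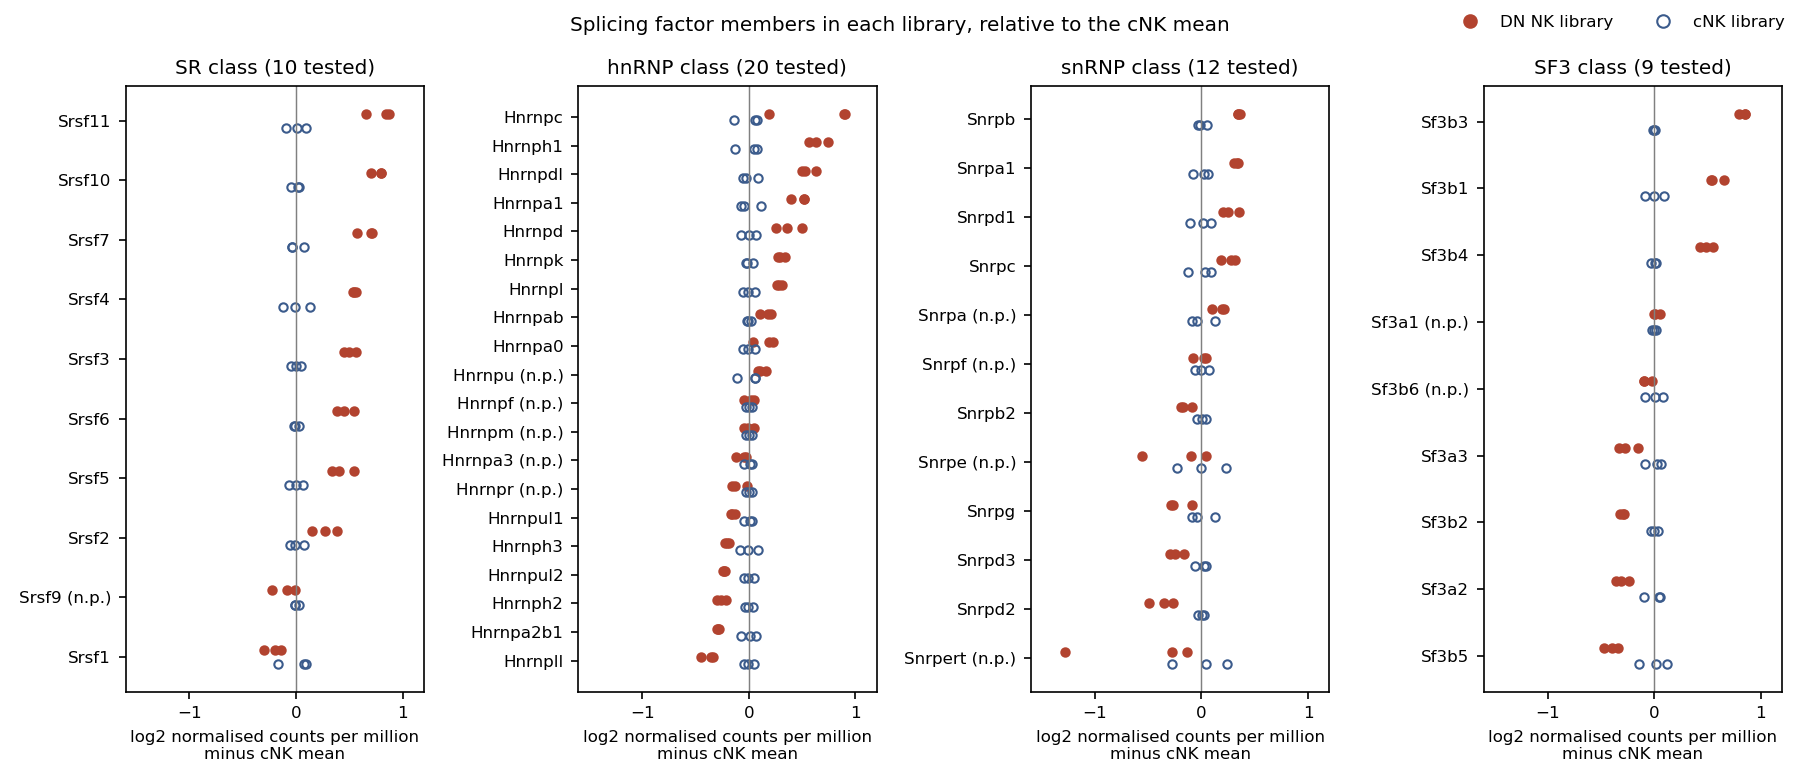
Each tested member in each library, as log2 normalised CPM minus its cNK mean; filled points are DN NK and open points cNK libraries, and n.p. marks members that did not pass the test. In the SR panel DN NK points lie right of the cNK points for 8 of 10 genes, and the single DN NK points set apart in Hnrnpc, Snrpe and Snrpert show where 1 library differs from its group.

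Promoters were read from RefSeq (GRCm38.p6) over 250 bases before and 50 after the annotated start, and 46 of 54 members had an entry. The RefSeq start can differ from the start of the gene row, and the whole Srsf10 window lies inside the Srsf10 row. They are shown for the 3 SR genes with the largest rise and for Srsf1, the SR gene that fell, 5′ to 3′ on the gene's strand. Capitals mark GC boxes (GGGCGG, or CCGCCC where it lies on the other strand) and CCAAT boxes (CCAAT, or ATTGG on the other strand).
Srsf11 promoter, chr3:158036557-158036856, minus strand: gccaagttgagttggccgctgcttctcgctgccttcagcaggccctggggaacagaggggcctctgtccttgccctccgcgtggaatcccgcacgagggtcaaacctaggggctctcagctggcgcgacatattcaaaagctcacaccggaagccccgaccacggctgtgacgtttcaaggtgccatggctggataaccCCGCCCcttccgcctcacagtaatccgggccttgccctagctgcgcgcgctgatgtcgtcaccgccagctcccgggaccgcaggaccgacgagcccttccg
Srsf10 promoter, chr4:135855821-135856120, plus strand: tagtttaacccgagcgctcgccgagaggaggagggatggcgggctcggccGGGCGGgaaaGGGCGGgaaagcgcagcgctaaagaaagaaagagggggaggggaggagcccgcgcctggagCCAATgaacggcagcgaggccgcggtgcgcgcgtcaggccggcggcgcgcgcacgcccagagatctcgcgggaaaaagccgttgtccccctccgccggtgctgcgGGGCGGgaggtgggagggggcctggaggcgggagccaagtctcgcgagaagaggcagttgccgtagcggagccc
Srsf7 promoter, chr17:80207256-80207555, minus strand: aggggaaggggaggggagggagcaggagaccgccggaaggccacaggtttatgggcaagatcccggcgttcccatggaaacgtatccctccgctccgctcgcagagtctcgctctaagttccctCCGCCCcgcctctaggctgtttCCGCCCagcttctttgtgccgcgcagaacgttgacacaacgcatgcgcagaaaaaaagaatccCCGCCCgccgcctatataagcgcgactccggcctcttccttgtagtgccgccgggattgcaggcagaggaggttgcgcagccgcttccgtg
Srsf1 promoter, chr11:88047123-88047422, plus strand: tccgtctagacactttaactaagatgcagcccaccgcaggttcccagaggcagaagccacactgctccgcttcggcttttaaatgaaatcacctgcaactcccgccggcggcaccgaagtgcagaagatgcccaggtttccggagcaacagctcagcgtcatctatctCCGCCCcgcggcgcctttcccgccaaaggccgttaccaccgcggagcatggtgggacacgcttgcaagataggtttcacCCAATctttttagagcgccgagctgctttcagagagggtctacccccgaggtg

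The Srsf10 and Srsf7 windows each hold 3 GC boxes, and those of Srsf11 and Srsf1 hold 1, so the motif count does not sort the genes that rose from the gene that fell. Over both strands, GGGCGG occurred in 10 of 11 SR promoters, 13 of 18 hnRNP, 5 of 10 snRNP and 4 of 7 SF3 promoters. That is 69.6% of the members' windows and 35.9% of all 27025 gene promoters of that length. All promoters include those of genes below the filter, and no share over the tested rows was taken. The shares here thus do not set the members apart from other expressed genes. CCAAT was found in 47.8% of members and 38.0% of all promoters, the ETS motif CCGGAAGT in 17.4% and 3.99%, and TATAAA in 13.0% and 14.2%. The longer NRF1 core motif was found in 0 of 46 windows and in 0.981% of all promoters. The median GC content was 69% in SR promoters, 61.7% in hnRNP, 54.7% in snRNP and 59% in SF3 promoters, and 52.7% over all promoters. The median number of CpG pairs was 32 in SR windows and 7 in all.

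In the hnRNP class, Hnrnpa1, the best known hnRNP, which silences exons and counters SR proteins, was the most abundant of all members. It lies at chr15:103240432-103244955 on the plus strand and had 386, 390.1 and 364 FPKM in DN NK, against 303, 272 and 277 FPKM in cNK. All DN NK libraries exceeded all cNK libraries, by 0.48 on the log2 scale (SE 0.0641, adjusted p = 0.000263). Hnrnph1 (chr11:50376990-50386528, plus strand), which binds runs of G, had 96.4, 86.2 and 91.5 FPKM in DN NK, against 63.0, 63.6 and 56.0 FPKM in cNK, without overlap and with a change of 0.65 (SE 0.0692, adjusted p = 7.37e-05). Hnrnpdl (chr5:100033577-100039664, minus strand) is a relative of Hnrnpd (AUF1), the protein that binds AU-rich elements in mRNAs. It had 113, 107 and 106 FPKM in DN NK, against 80.5, 75.1 and 76.0 FPKM in cNK, again without overlap (log2 change 0.56, SE 0.0565, adjusted p = 5.52e-05). Hnrnpd itself, a neighbour on the same strand at chr5:99955935-99978938, rose by 0.38.

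Hnrnpc (chr14:52073380-52104028, minus strand), which binds U-rich tracts and packages nascent RNA, had the largest fitted change of the class and the least certain. It had 184, 113 and 187 FPKM in DN NK, against 108, 95.2 and 108 FPKM in cNK. The groups did not overlap, but DN NK replicate 2 lay close to the cNK libraries. The log2 change was 0.70 (SE 0.215, adjusted p = 0.0378), and the call was lost in 7 of 15 other analyses, with adjusted p of 0.0900 to 0.121 in the 5 that left out a library other than DN NK replicate 2. Without that library the change was 0.89 (adjusted p = 7.78e-05).

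The remaining higher hnRNP genes changed less. Hnrnpk, a poly(C)-binding protein, rose by 0.30, and Hnrnpl, which binds CA repeats, by 0.29. Hnrnpab rose by 0.16 (adjusted p = 0.0553 without DN NK replicate 2), and Hnrnpa0 by 0.15 at an adjusted p of 0.0499, a call lost in 10 of 15 other analyses (adjusted p = 0.0988 to 0.180 without DN NK replicate 2, DN NK replicate 3, cNK replicate 2 or cNK replicate 3). The 6 lower genes fell by 1.11 to 1.30-fold. Hnrnpll, which in mouse lymphocytes controls the variable exons of Ptprc (CD45), had 1.33, 1.45 and 1.45 FPKM in DN NK, against 1.82, 2.00 and 1.92 FPKM in cNK. It was the least abundant tested hnRNP gene, its groups did not overlap, and it fell by 0.38 on the log2 scale (adjusted p = 0.0017), while Srsf7, near it on the same strand of chromosome 17, rose.

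Hnrnpa2b1 fell by 0.29, Hnrnph2 by 0.26, Hnrnpul2 by 0.23, Hnrnph3 by 0.21 and Hnrnpul1 by 0.15. Close relatives thus differed in direction: Hnrnpa1 was higher where Hnrnpa2b1 was lower, and Hnrnph1 higher where Hnrnph2 and Hnrnph3 were lower. Hnrnph3 overlaps Rufy2 on the other strand, whose counts equal 68.7% of its own, and lost its call without DN NK replicate 2, DN NK replicate 3 or cNK replicate 3 (adjusted p = 0.0538 to 0.0751). Hnrnpf (chr6:117900324-117925622, plus strand), a G-run binder like Hnrnph1, was the most abundant hnRNP gene that did not pass. It had 161, 166 and 158 FPKM in DN NK, against 168, 169 and 165 FPKM in cNK, with overlap and a log2 change of 0.01 (SE 0.0452, adjusted p = 0.888). Hnrnpm, Hnrnpu, Hnrnpa3 and Hnrnpr did not pass either, with log2 changes of -0.10 to 0.12. The pseudogene row Hnrnpa1l2-ps, which ends in no number and so is a member, was listed at 1.23 FPKM in DN NK replicate 1 and at 0 in the other 5 libraries.

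The snRNP genes went in both directions within the Sm ring, whose 7 proteins assemble in equal number on each small nuclear RNA. Of the 7 ring genes 2 were higher, 3 lower and 2 did not pass. Over all tested rows 30.8% were higher and 30.9% lower, so such a mix does not set the ring genes apart. Their summed level was 274, 264 and 261 FPKM in DN NK and 273, 273 and 262 FPKM in cNK. Snrpb (SmB, chr2:130171414-130179403, minus strand) had 65.4, 65.6 and 66.2 FPKM in DN NK, against 54.9, 53.7 and 53.1 FPKM in cNK. Its groups did not overlap, and it rose by 0.35 on the log2 scale (SE 0.0428, adjusted p = 0.000162). Snrpd1 (SmD1), the most abundant snRNP gene, had 73.5, 67.2 and 70.3 FPKM in DN NK, against 60.5, 56.9 and 65.2 FPKM in cNK. The lowest DN NK value lay just above the highest cNK value, with a change of 0.27 (SE 0.0685, adjusted p = 0.00864). Snrpd2 (SmD2, the ring partner of SmD1, chr7:19149722-19153542, plus strand) went the other way, with 17.2, 14.9 and 16.6 FPKM in DN NK, against 21.6, 22.5 and 21.6 FPKM in cNK. It fell by 0.37 (SE 0.0656, adjusted p = 0.00131) with no overlap. Snrpd3 fell by 0.24 and Snrpg by 0.22. Snrpd3 overlaps Gucd1 on the other strand, whose counts equal 41.9% of its own. The Snrpg call was lost without DN NK replicate 2, DN NK replicate 3, cNK replicate 1 or cNK replicate 2 (adjusted p = 0.0547 to 0.120).

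Snrpe (SmE, chr1:133603871-133610291, minus strand) was the most abundant snRNP gene that did not pass. It had 38.0, 42.3 and 28.3 FPKM in DN NK, against 42.2, 50.7 and 36.9 FPKM in cNK. The libraries of each group spread widely and overlapped (log2 change -0.19, SE 0.191, adjusted p = 0.415). Snrpf had a log2 change of -0.00. Snrpert, which the file describes as a pseudogene of Snrpe, lies within the row of Rnf24 on the same strand and had 3.15, 1.56 and 3.57 FPKM in DN NK, against 4.14, 3.38 and 4.82 FPKM in cNK (adjusted p = 0.203). Snrpn, the neuronal imprinted relative of Snrpb, stayed below the filter at 0.0822, 0.171 and 0.107 FPKM in DN NK and 0.0494, 0.0232 and 0.0414 FPKM in cNK.

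Among the proteins particular to the U1 or U2 snRNP, 2 of 4 were higher and 1 lower, beside 30.8% and 30.9% of all tested rows. Snrpa1 (the U2 A-prime protein, chr7:66059003-66074587, plus strand) had 10.4, 10.6 and 10.5 FPKM in DN NK, against 8.94, 8.90 and 8.26 FPKM in cNK. DN NK lay above cNK throughout, by 0.33 on the log2 scale (SE 0.0609, adjusted p = 0.00166). Its partner Snrpb2 (the U2 B-double-prime protein) fell by 0.15 at an adjusted p of 0.034, a call that 6 of 15 other analyses lost, those without DN NK or cNK replicates 2 and 3 among them (adjusted p = 0.0794 to 0.106). Of the U1 proteins, Snrpc rose by 0.25 and Snrpa, which overlaps BC024978 on the other strand (counts equal to 35.6% of its own), had a change of 0.17 that did not pass (adjusted p = 0.0775).

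The SF3b subunits, which form a single complex, also went in both directions. Of 6 genes 3 were higher and 2 lower, beside 30.8% and 30.9% of all tested rows. Sf3b3 (chr8:110810239-110846787, minus strand), a β-propeller scaffold of SF3b, had the largest change of the 51 tested members. It had 24.8, 25.1 and 24.4 FPKM in DN NK, against 14.4, 14.7 and 14.5 FPKM in cNK, a change of 0.83 (SE 0.0395, adjusted p = 1.11e-06) with tight and separate groups. Cog4, which overlaps its end on the other strand, had counts equal to 10.6% of its own. Sf3b1 (chr1:54985169-55027481, minus strand), the HEAT-repeat protein that clasps the branch site and is often mutated in myelodysplasia, was the most abundant SF3 gene. It had 144, 134 and 137 FPKM in DN NK, against 101, 97.7 and 91.7 FPKM in cNK, and rose by 0.58 (SE 0.063, adjusted p = 8.13e-05) without overlap. Sf3b4 (chr3:96172332-96177564, plus strand), which contacts pre-mRNA upstream of the branch point, had 28.1, 29.8 and 27.8 FPKM in DN NK, against 21.2, 21.6 and 20.9 FPKM in cNK. It was higher in each DN NK library, by 0.49 (SE 0.053, adjusted p = 7.99e-05).

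Sf3b5 (chr10:13005343-13009183, plus strand), a small SF3b subunit, was the least abundant SF3 gene, with 4.67, 4.49 and 4.97 FPKM in DN NK, against 6.47, 7.10 and 5.92 FPKM in cNK. It fell by 0.40 (SE 0.084, adjusted p = 0.00312) with no overlap. Sf3b2, which binds Sf3b4, fell by 0.30. Sf3b6 (p14, chr12:4817544-4827659, plus strand), which lies near the branch adenosine, had 17.0, 16.4 and 16.7 FPKM in DN NK, against 19.0, 18.5 and 17.4 FPKM in cNK. It did not pass (log2 change -0.07, SE 0.0593, adjusted p = 0.315). SF3b genes summed to 287, 278 and 282 FPKM in DN NK and 248, 251 and 239 FPKM in cNK, a gap carried by Sf3b1. In SF3a none of 3 was higher: Sf3a2 fell by 0.30, Sf3a3 by 0.25, and Sf3a1 had a change of 0.02. Sf3a2 overlaps Plekhj1 on the other strand, whose counts equal 53.8% of its own.

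**Figure D4:**
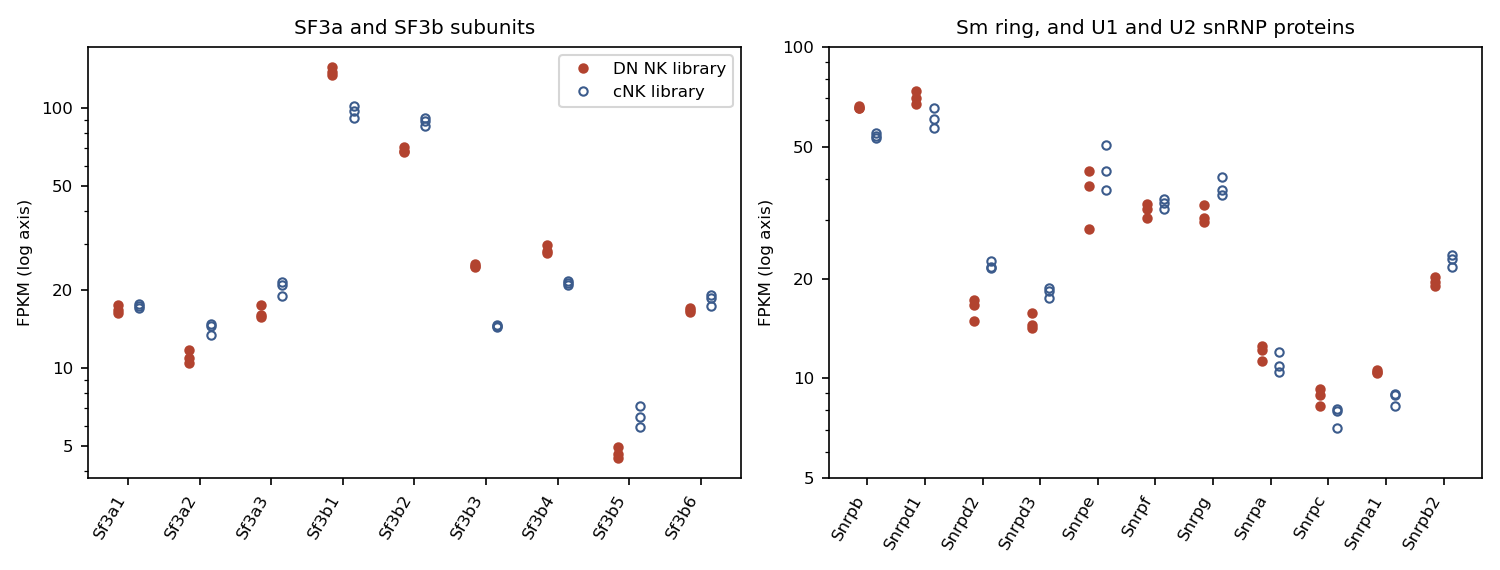
FPKM of each library on a log axis for SF3a and SF3b subunits (left) and for Sm ring, U1 and U2 proteins (right); filled points are DN NK and open points cNK. Sf3b1, Sf3b3 and Sf3b4 lie higher in DN NK while Sf3b2 and Sf3b5 lie lower, and Snrpb and Snrpd1 are higher while Snrpd2, Snrpd3 and Snrpg are lower.

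These levels say nothing of which isoform was made. In all 50 members with at least 1000 counts, estimated count over FPKM gave the same length in the 6 libraries within 1%, and for 96% of members that length lay within 10% of the merged exons of all transcripts the table lists. For those members each value therefore pools all transcripts listed for its row. The exceptions were Hnrnpm, at 4702 bases against 6689 in the merged exons, and Hnrnpul2, at 5726 against 5118. For the 10 tested SR genes the table lists 72 transcripts, of which GENCODE M21 calls 13 nonsense-mediated decay and 22 retained intron, spread over 8 and 7 of the genes. The 20 tested hnRNP genes have 172 listed transcripts, 18 of the first kind and 44 of the second. Srsf11 alone lists 19, of which 3 are of the first kind and 11 of the second, while Srsf7, Srsf10, Hnrnpa1 and Hnrnpf list 0 of either kind. The Srsf7 row lists only 1 of the gene's 8 transcripts in M21, and the Hnrnpa1 row 2 of 5. Among other rows with 0 of either kind, Hnrnpc lists 2 of 13, Sf3b2 1 of 8 and Snrpd1 1 of 5. For these genes the 0 describes the listed transcripts, not the gene.

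Splicing genes outside the 4 symbol groups were read from 7 lists. Together 69 of 133 tested rows were higher, 19 lower and 45 did not pass, with a median log2 change of 0.24, where 30.8% of all tested rows were higher and 30.9% lower. SR-related proteins and SR kinases had 17 of 23 higher and 1 lower, with a median of 0.58. In that list Clk1, a kinase that phosphorylates SR proteins, averaged 193 ± 13.4 FPKM in DN NK and 113 ± 8.84 FPKM in cNK (SD, n = 3 each), a rise of 0.83. Srek1, an SR-related regulator, rose by 0.95, and Srpk2, the cytoplasmic SR kinase, was the single lower gene, by 0.68, named after its values were seen. The hnRNP-type proteins with other symbols had 9 of 19 higher and 2 lower, with a median of 0.32. Among them Ptbp1, the polypyrimidine tract repressor, averaged 90.7 ± 1.19 FPKM in DN NK and 56.6 ± 5.13 FPKM in cNK (SD, n = 3 each), a rise of 0.74, and Elavl1 (HuR) rose by 0.73.

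U2AF and U2-associated proteins had 12 of 20 higher and 2 lower. Sf1, which binds the branch point before the U2 snRNP, averaged 79.2 ± 2.43 FPKM in DN NK and 45.0 ± 3.26 FPKM in cNK (SD, n = 3 each), a rise of 0.88. U2af1l4 has 2 rows that moved in opposite directions (0.67 and -0.78) and is uncertain. The catalytic and Prp19 list had 13 of 23 higher and 3 lower, led by the helicase Dhx38 (PRP16) at 45.0 ± 0.964 FPKM in DN NK and 22.8 ± 1.27 FPKM in cNK (SD, n = 3 each), a rise of 1.04, and by Prpf38b, which rose by 0.94.

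The lists nearest to the snRNP class were mixed as it was. Other U1, U4/U6 and U5 proteins had 10 of 26 higher and 6 lower, with a median of -0.00. There Snrnp27, of the tri-snRNP, fell by 0.76, and Sart3, which recycles U4/U6, rose by 0.72. The snRNP assembly list had 4 of 14 higher, close to the share over all tested rows, and 3 lower, with a median of -0.15, and its leading genes Ddx20 (Gemin3) and Coil (coilin of Cajal bodies) rose by 0.89 and 0.80. In the minor spliceosome 4 of 8 were higher and 2 lower. Zmat5, a protein of the U11/U12 snRNP, averaged 9.04 ± 0.731 FPKM in DN NK and 18.6 ± 2.13 FPKM in cNK (SD, n = 3 each), and fell by 0.98, while Snrnp48 rose by 0.61.

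**Figure D5:**
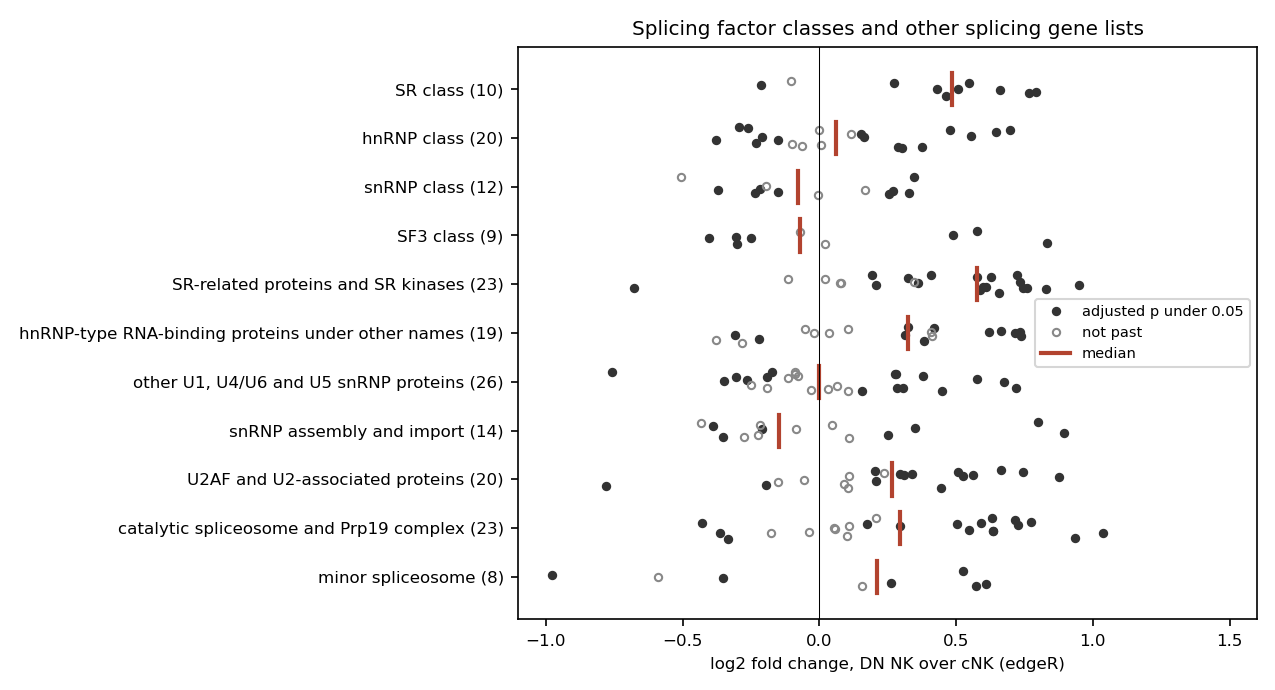
Log2 fold change, DN NK over cNK, of each tested gene in the 4 classes and in 7 lists of other splicing genes; filled points passed an adjusted p of 0.05, open points did not, and red ticks are medians. SR-related proteins (median 0.58) lie to the right as the SR class does (0.48), and the snRNP lists centre near or below 0.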

How the data were processed

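Per the labels' protocols, total RNA was extracted with Trizol, poly(A) RNA selected, and libraries made with TruSeq RNA v2, a kit that does not mark strand, and sequenced as read pairs on a NovaSeq. HISAT, StringTie and edgeR are the tools, and GRCm38 (mm10) the build, in the submitters' processing notes, which give no versions. The authors deposited FPKM and a count for every gene row in each library, per the file headers. The deposited counts are whole but were treated as estimated counts, since in rows with a single transcript the commonest low value, taken as 1 read pair, was 4 (a further run divided by it).

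A row was tested where 3 or more of the 6 libraries reached 1 FPKM (11690 rows, with 99.3% of counts). The fit was edgeR 4.0.16 in R 4.3.3, with TMM scaling (factors 0.972 to 1.03), robust quasi-likelihood, group as the only term, 2-sided, with p-values adjusted by Benjamini-Hochberg across the tested rows at a threshold of 0.05. The biological coefficient of variation was 13.5%. A standard error is the log2 fold change over the square root of F. FPKM values are given as deposited, with no rescaling by TMM, so a fold of FPKM and a fitted fold differ slightly. Alternatives used other scaling, filters, limma 3.58.1 on log2(FPKM + 1) or log2(FPKM + 0.1), DESeq2 1.42.0, a replicate block and leaving out each library. The code was also run on simulated counts with known changes. Those counts varied less between libraries than these data and held far fewer changed rows, so that run gives no error rate for the calls here. Every column of the table was used.

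Members and lists were chosen with earlier results of these data known. Full statistics are given per class for up to 4 passing members with the largest change, the most abundant member and the most abundant that did not pass, and for each other splicing list the 2 passing members with the largest change are named. Promoters come from RefSeq tables and transcript types from GENCODE M21, both on GRCm38.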

Additional observations from a re-analysis of the deposited data

How the results depend on the processing

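No call turned direction in any of the 15 other analyses, and 20 of the 24 higher and 11 of the 15 lower calls held in all that fitted them (Hnrnpll was below the filter in 1). Lost in some were Srsf1, Hnrnpa0, Hnrnpab, Hnrnpc, Hnrnph3, Snrpb2, Snrpc and Snrpg. Upper quartile scaling gave 20 higher and 18 lower members and gained Sf3b6, Hnrnpa3 and Hnrnpr; no filter gave 21 and 17 and gained Hnrnpa3 and Hnrnpr, with Srsf12 now tested and higher. With median-ratio scaling, and with the replicate block, 0 SR genes were lower; leaving out 1 library gave 0 to 1 lower SR genes and 2 to 4 lower snRNP genes. Whether the replicate numbers pair the libraries is not settled. Correlations of deviations were 0.046, 0.0362 and 0.162 between libraries of the same number and -0.0984 to 0.0565 between those of different numbers. The block lost Srsf1, Hnrnpa0 and Snrpb2 and gained Snrpe.

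Medians of log2 fold change moved as follows. Upper quartile scaling gave 0.031 for all members, 0.40 for SR, -0.023 for hnRNP, -0.16 for snRNP and -0.16 for SF3. The median over all tested rows moved too, from -0.016 in the main fit to -0.10 with that scaling. Limma with pseudocounts of 1 and 0.1 gave 0.056 and 0.057 for all members and 0.0013 and 0.0018 for hnRNP. It gave -0.14 for snRNP at 0.1, and -0.13 for SF3 with either. Over all tested rows the limma medians were -0.064 and -0.073. A mean of at least 5 FPKM gave 0.10 for hnRNP and -0.015 for snRNP, and no filter gave -0.14 for SF3. Over all rows these filters gave medians of -0.013 and 0.079. With no filter the median of all members was 0.095, near that of all rows. Leaving out each library in turn gave 0.062 to 0.14 for all members, 0.44 to 0.51 for SR, 0.031 to 0.083 for hnRNP, -0.11 to -0.034 for snRNP and -0.11 to -0.032 for SF3. The class ratios by CPM were 1.10 for hnRNP and 1.28 for SF3. The change of Hnrnpf, which never passed, turned to -0.077 with upper quartile scaling, -0.056 with no filter, -0.0037 at the 5 FPKM mean and -0.053 in both limma fits, and ran between -0.022 and 0.032 with 1 library left out. The causes were not tested. With 3 libraries a group, fold size alone did not mark the firm calls: Hnrnpul1, at 1.11-fold lower, held in all 15, and Hnrnpc, at 1.62-fold higher, did not.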

Other observations

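The spliceosome set of the deposited KEGG column, which was not used to choose members, holds 122 rows, 32 of them members. Without the members, 48 of its 87 tested rows were higher in DN NK, 15 lower and 24 not past the test. The median log2 change was 0.21. Over all tested rows 30.8% were higher and 30.9% lower. The lowest change in the set, -0.76, is that of Snrnp27, which is also in the lists of other splicing genes above. The set therefore shares genes with those lists and is not independent of them, and the extent of the sharing was not counted. Cell cycle genes, from a list of 25, went the other way from the spliceosome set. Of 24 tested, 17 were lower in DN NK and 1 higher, beside 30.9% and 30.8% of all tested rows. Their median log2 change was -0.74. They summed to 264 to 279.7 FPKM in DN NK and 315 to 331 FPKM in cNK.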
